A study of Mus musculus with 42 samples.

Results

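Resolvin E1 (RvE1) was compared with vehicle in the liver of obese mice that lack ChemR23, using 14 of the 42 mice sequenced. The mice were taken by their labels as 7 KO obese+RvE1 and 7 KO obese mice (vehicle), the samples that share a table of normalized read counts, with 1 library per mouse. Of the 14460 genes in that table, 14207 averaged at least 5 normalized counts over the 14 mice and were tested. All 14 mice were male C57BL/6J with a global CRISPR/Cas9 deletion of ChemR23, so that every cell type, in liver and elsewhere, carried the deletion in both groups. Both groups also ate the high fat diet, with 60% of its energy from fat, for 15 weeks from 6 weeks of age. RvE1 (300 ng) or its ethanol and saline vehicle was injected intraperitoneally on 4 consecutive days, and liver was taken on day 5 after a fast of at least 4 hours. The comparison asks which liver transcripts differ with RvE1 when ChemR23 is missing. Obese WT mice given RvE1 or vehicle, 7 each, are used beside it.

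RvE1 is a lipid mediator made from eicosapentaenoic acid and is counted among the mediators that help inflammation to resolve. It binds ChemR23, encoded by Cmklr1 and also a receptor of the adipokine chemerin, and it binds BLT1, encoded by Ltb4r1, the receptor through which leukotriene B4 attracts neutrophils. Liver is mostly hepatocytes, which make acute phase proteins, glucose and lipids under hormonal control, together with resident macrophages (Kupffer cells), endothelium and passing leukocytes.

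The promoters of 4 genes on which the results turn are shown first, from RefSeq on GRCm38.p6, each from 250 bases before to 50 bases after a transcription start. Cish encodes an inhibitor of cytokine receptor signalling that is induced through STAT5, and Zfp445, a zinc finger repressor, had the smallest p-value. Capitals mark matches, on either strand, to the STAT motif TTCNNNGAA. It is held by 8.30% of the 32851 promoters of the same length and by 3 of 9 promoters of the 6 DESeq2-called genes found in that set (Cish, Rnf144b and Zfp445).
Cish, chr9:107296409-107296708, + strand: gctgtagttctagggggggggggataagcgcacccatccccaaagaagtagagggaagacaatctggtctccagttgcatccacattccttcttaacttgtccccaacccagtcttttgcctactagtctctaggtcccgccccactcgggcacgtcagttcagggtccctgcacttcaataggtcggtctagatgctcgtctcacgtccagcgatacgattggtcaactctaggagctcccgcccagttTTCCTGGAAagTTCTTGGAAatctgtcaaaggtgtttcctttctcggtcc
Zfp445, chr9:122865957-122866256, − strand: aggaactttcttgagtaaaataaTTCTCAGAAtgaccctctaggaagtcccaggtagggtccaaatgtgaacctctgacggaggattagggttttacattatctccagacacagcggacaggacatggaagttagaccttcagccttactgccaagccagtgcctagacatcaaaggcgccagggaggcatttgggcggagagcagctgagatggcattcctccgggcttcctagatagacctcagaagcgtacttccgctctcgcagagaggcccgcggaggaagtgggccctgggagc
Cxcl1 and Cxcl2 encode chemokines that draw neutrophils through Cxcr2, and their promoters, chosen after their values had been seen, are shown because neutrophil transcripts differed among the same mice. Here capitals mark the NF-kB motif on either strand (GGG, then any 2 bases, then TTTCC), held by 1.63% of all these promoters.
Cxcl1, chr5:90890995-90891294, + strand: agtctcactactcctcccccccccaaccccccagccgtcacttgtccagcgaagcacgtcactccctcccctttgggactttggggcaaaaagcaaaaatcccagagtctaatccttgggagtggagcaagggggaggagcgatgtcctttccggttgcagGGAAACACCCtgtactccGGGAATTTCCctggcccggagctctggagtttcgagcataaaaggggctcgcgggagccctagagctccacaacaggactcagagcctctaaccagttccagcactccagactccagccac
Cxcl2, chr5:90903649-90903948, + strand: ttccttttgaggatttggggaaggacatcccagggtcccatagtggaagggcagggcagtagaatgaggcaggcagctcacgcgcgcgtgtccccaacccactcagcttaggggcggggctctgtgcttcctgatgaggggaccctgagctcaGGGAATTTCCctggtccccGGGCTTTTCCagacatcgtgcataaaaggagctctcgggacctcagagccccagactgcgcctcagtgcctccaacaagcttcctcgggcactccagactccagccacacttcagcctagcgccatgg
The Cish promoter held the STAT motif at bases 251 to 259 and 262 to 270 of the window, and the Zfp445 promoter at bases 24 to 32. The NF-kB motif lay at bases 162 to 171 and 180 to 189 for Cxcl1, and at bases 154 to 163 and 173 to 182 for Cxcl2. The forkhead motif TGTTTAC was in 3.65% of all promoters and in 1 promoter of the called genes, a promoter of Bbc3, and the NF-kB motif had 1 match in another promoter of the same gene. These matches describe the letters of each window and are not evidence of binding.

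Reads on listed genes ran from 15989997 to 43831344 (median 23395983) in vehicle mice and from 16969056 to 36331052 (median 22999850) in RvE1 mice. None of 6 library measures passed the test between the groups (exact permutation tests, two-sided, adjusted p from 0.836 to 0.980 over 7 against 7 mice), including the ribosomal RNA gene Rn45s, which took 5.19% to 15.1% of reads in RvE1 and 5.01% to 19.5% in vehicle mice. The genotype was checked on Cmklr1, whose level in CPM (reads scaled to the library total) was 0.206 to 0.961 in KO obese and 0.267 to 0.651 in KO obese+RvE1 mice, below the 1.36 to 5.73 of the 14 obese WT mice with no overlap. Wscd2, checked beside it, had 5.41 to 25.4 normalized counts in RvE1 and 3.97 to 24.3 in vehicle mice. The number that opens a mouse's identifier was 10, 23 or 31 in vehicle mice (3, 1 and 3 mice) and 12, 15 or 23 in RvE1 mice (3, 2 and 2 mice). What that number stands for is not stated in the labels. Only number 23 holds mice of both groups, so number and treatment cannot be told apart for the others. In a principal component analysis the groups were mixed on the first component (32.4% of variance). On the second (19.8%), RvE1 mice 12L, 12RL, 15-2L and 15R lay at 25.5 to 48.5 and every vehicle mouse at 3.18 or below. RvE1 mice 12-2L, 23RL and 23-2L lay on the vehicle side, at -15.36, -18.42 and -33.65, the last the lowest of all 14 mice.

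Between RvE1 and vehicle livers of ChemR23 KO mice, no gene of 14207 passed the limma test (0 called, 0%), where a call needed an adjusted p under 0.1 and more than a 1.5-fold difference. The smallest adjusted p was 0.346, for Zfp445. Without adjustment, 1179 genes (8.30%) had a p under 0.05, 490 with a higher mean (3.45%) and 689 with a lower mean in RvE1 mice (4.85%). Regardless of p, the means differed more than 1.5-fold upward in 338 genes (2.38%) and downward in 440 (3.10%). edgeR on the whole reads recovered from the normalized counts also called 0 genes, with 1222 (8.60%) at an unadjusted p under 0.05. DESeq2 on those reads called 14 genes (0.0985%), 5 higher (0.0352%) and 9 lower (0.0633%), with 1367 at an unadjusted p under 0.05. The median SE of a log2 fold change was 0.18, and many of the genes below varied far more between mice.

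**Figure D1:**
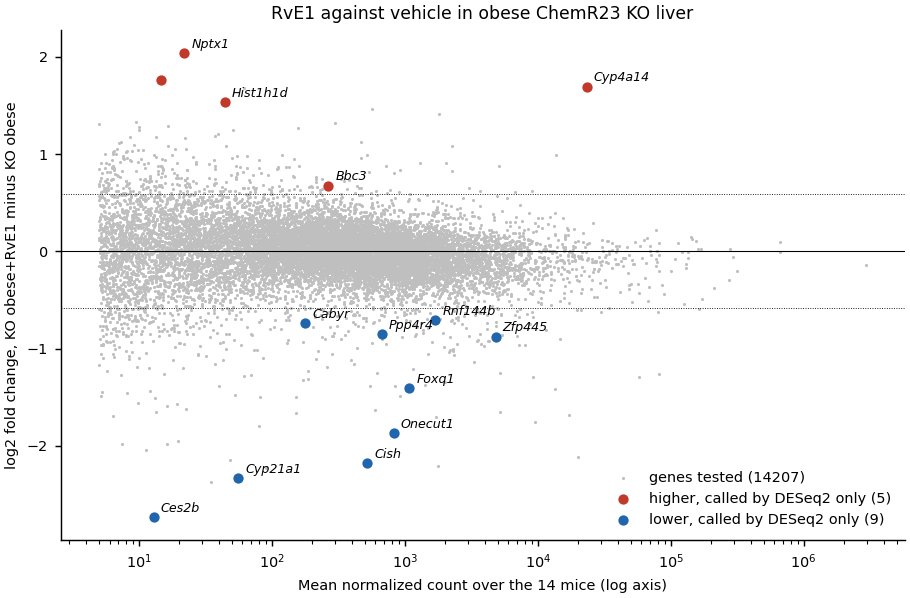
Mean normalized count over 14 mice (x axis, log scale) against the limma log2 fold change of KO obese+RvE1 minus KO obese (y axis) for 14207 genes, with dotted lines at a 1.5-fold change. The 5 red and 9 blue genes were called by DESeq2 alone, from Ces2b at -2.73 to Nptx1 at 2.04, and limma called none.

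These counts depended on which mice were used. Without the 3 vehicle mice numbered 10, limma called 297 genes (2.09%), 155 higher and 142 lower in RvE1 mice, among them 13 of the 14 DESeq2 genes, and Cxcl1 had the smallest adjusted p (0.0111). Without the mice numbered 12, 15, 23 or 31 limma called 0 genes, with smallest adjusted p of 0.985, 0.891, 0.192 and 1. Leaving out RvE1 mouse 23-2L left 1 gene called by limma, Zfp445 (adjusted p = 0.0758), and leaving out vehicle mouse 10RL left 1, Foxq1. The DESeq2 count was 416 without 23-2L, 91 without 10RL and 83 without 10-2L, but 1 without 31L, without 31R or without 15R, and 0 without the mice numbered 12. At an unadjusted limma p under 0.05, all genes tested gave 1147 higher and 1219 lower without the mice numbered 10, and 1021 and 1269 without 23. They gave 169 and 327 without 12, 302 and 399 without 15, and 101 and 141 without 31, against 490 and 689 with all mice. List counts given below with mice left out are to be read beside these totals, which moved the same way.

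Zfp445 was the gene called most steadily. It encodes a KRAB zinc finger protein known for keeping imprinted regions methylated, and it lies on chromosome 9 of GRCm38 (mm10) from 122844529 to 122866006. RvE1 mice had 2654 to 4713 normalized counts (median 3323) and vehicle mice 4459 to 7970 (median 6315). All RvE1 mice but 23-2L lay below every vehicle mouse. The log2 fold change was -0.88 (SE 0.15, 95% interval -1.19 to -0.56), and DESeq2 gave an adjusted p of 0.000499 and called it in 14 of 14 fits that left out 1 mouse. Within number 23 the difference was -0.36.

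Other regulators of transcription with lower means were Foxq1 and Onecut1. Foxq1, a forkhead factor (chromosome 13, 31556134 to 31560976), had 292 to 849 normalized counts (median 566) in RvE1 mice. Vehicle mice had 221 to 2698 (median 1520). The vehicle mouse 10RL, at 221, lay below all RvE1 mice, and the other 6 lay at 1374 or above, over the highest RvE1 mouse. The log2 fold change was -1.41 (SE 0.43), DESeq2 called it (adjusted p = 0.0545), and it stayed called in 10 of 14 fits with 1 mouse left out. Onecut1, which encodes the hepatocyte factor HNF6 (chromosome 9, 74861921 to 74891781), ran from 124 to 374 (median 188) with RvE1 and from 158 to 4879 (median 649) with vehicle. Its groups overlapped through vehicle mice 23L and 10RL, and the log2 fold change was -1.87 (SE 0.59, DESeq2 adjusted p = 0.0585).

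Cish belongs with Onecut1 to the growth hormone axis, in which the hormone acts on hepatocytes through its receptor Ghr, the kinase JAK2 and STAT5, and Cish and Socs2 feed back on that signal. Cish (chromosome 9, 107296026 to 107302784) had 60.9 to 428 normalized counts (median 120) in RvE1 mice and 64.7 to 1940 (median 913) in vehicle mice. The groups overlapped through vehicle mice 10RL, at 64.7, and 23L, at 302. The log2 fold change was -2.18 (SE 0.63), and DESeq2 called the gene (adjusted p = 0.0789). Socs2 ran from 99.8 to 1005 (median 213) against 354 to 1438 (median 993), with a log2 fold change of -1.63 (SE 0.46), and Ghr from 9912 to 20272 (median 12316) against 13261 to 22274 (median 19522), at -0.48 (SE 0.16). Neither was called by any tool. Of 29 growth hormone and STAT5 axis genes tested, 6 had a lower and 0 a higher mean at an unadjusted p under 0.05, 25 had a negative fold change, and the median log2 fold change was -0.30 against -0.01 over all genes. Without the mice numbered 10 the counts were 10 lower and 0 higher with a median of -0.62, and without those numbered 31 they were 3 and 0 with a median of -0.20.

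**Figure D2:**
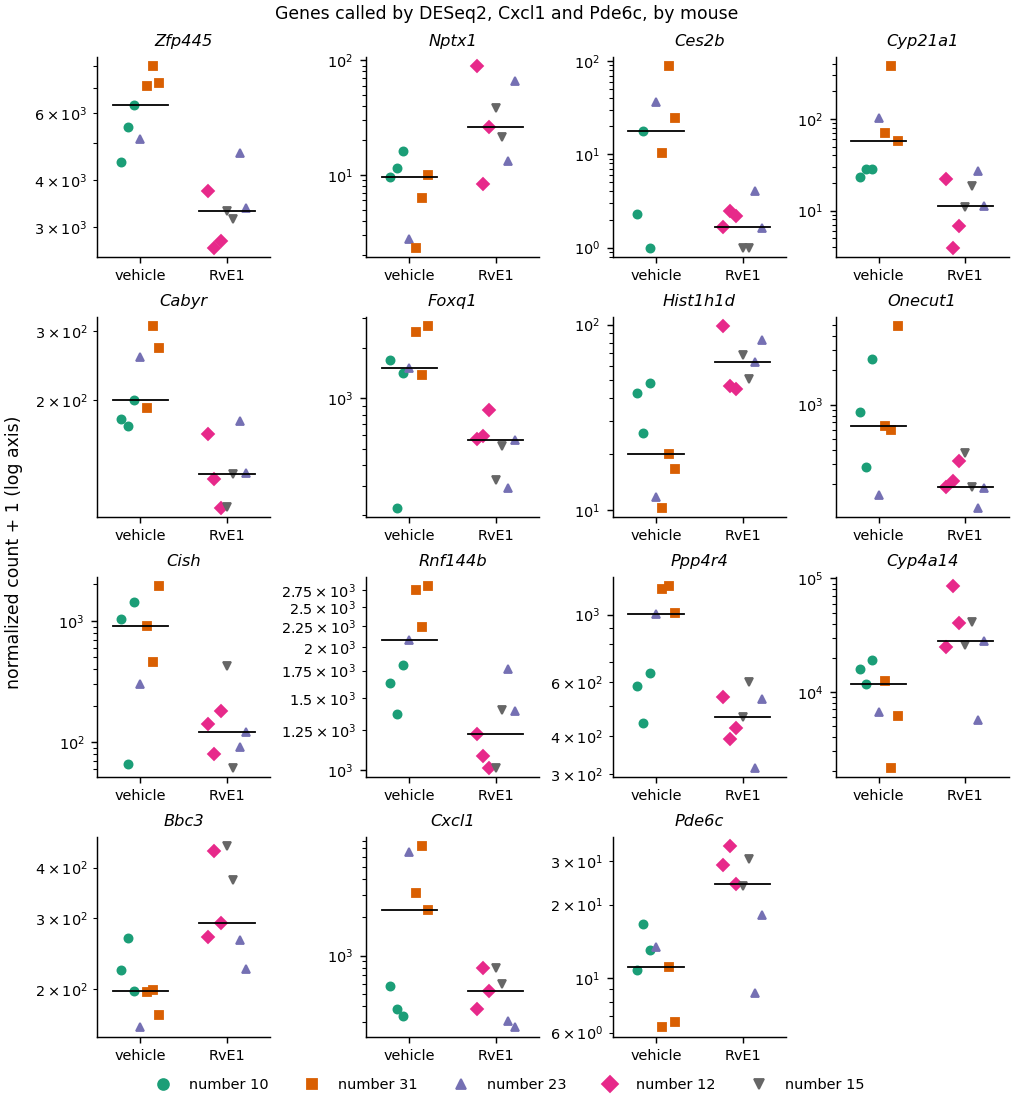
Normalized count + 1 (y axes, log scale) of 13 genes called by DESeq2 and of Cxcl1 and Pde6c in 7 KO obese (vehicle) and 7 KO obese+RvE1 mice, with a bar at each group's median. Shape and colour give the number that opens the mouse's identifier, and Cxcl1 separates vehicle mice numbered 10 (333 to 577) from the other vehicle mice (2282 to 7257).

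Of 3 metabolic enzymes among the called genes, Cyp4a14 was higher and Cyp21a1 and Ces2b were lower in RvE1 mice. Cyp4a14, a fatty acid hydroxylase induced by PPARa (chromosome 4, 115486200 to 115496142), had 5655 to 85683 normalized counts (median 27952) with RvE1 and 2145 to 19105 (median 11785) with vehicle. All RvE1 mice but 23-2L lay above every vehicle mouse, and the log2 fold change was 1.69 (SE 0.53, DESeq2 adjusted p = 0.0924). Reads may be divided between it and near-identical Cyp4a genes. Cyp4a10, of the same family, had 6798 to 37586 (median 14337) against 4759 to 12389 (median 8077), with a log2 fold change of 0.99 (SE 0.33) and no call. Over the 32 genes of fatty acid oxidation and PPARa targets, those were the only 2 at an unadjusted p under 0.05, both higher, and the median was 0.08. Cyp21a1, the steroid 21-hydroxylase (chromosome 17, 34801348 to 34804561), had 2.93 to 26.3 against 22.3 to 377, with 6 of 7 RvE1 mice below every vehicle mouse and a log2 fold change of -2.33 (SE 0.58). Ces2b, a carboxylesterase (chromosome 8, 104831572 to 104840093), had 0 to 3.09 in RvE1 mice and 0 to 87.2 in vehicle mice. With so few reads its fold change depended on the scale, at -2.73 (SE 0.81) by limma and -4.76 by DESeq2 (adjusted p = 0.0545). Related Ces2 and Cyp21 copies can share reads with these genes.

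Other called genes had higher means for Nptx1, Hist1h1d and Bbc3 and lower means for Cabyr, Rnf144b and Ppp4r4. Nptx1, neuronal pentraxin 1 (chromosome 11, 119538719 to 119547753), had 7.33 to 88.0 normalized counts (median 25.5) against 1.32 to 15.2 (median 8.53), which gave 2.04 (SE 0.55) on the log2 scale. Among RvE1 mice, 5 of 7 were above all vehicle mice. Hist1h1d, a linker histone (chromosome 13, 23553262 to 23560686), had 44.0 to 97.2 against 9.27 to 47.2, and its fold change on the log2 scale was 1.54 (SE 0.34). Bbc3, the proapoptotic BCL2 family member PUMA and a p53 target (chromosome 7, 16308393 to 16318205), had 223 to 451 (median 291) against 160 to 266 (median 198), at 0.68 (SE 0.17). For Hist1h1d and for Bbc3, 5 of 7 RvE1 mice were above the highest vehicle mouse and the rest overlapped. Of 27 p53 targets tested, 3 had higher and 0 lower means at an unadjusted p under 0.05, Bbc3, Sesn2 at 0.44 (SE 0.16) and Plk2 at 0.42 (SE 0.18), and the median was 0.08. Among 21 genes of the BCL2 family and apoptosis, 0 were higher and 2 were lower, Xiap and Mcl1, with log2 fold changes of -0.40 and -0.25.

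Cabyr, a calcium-binding protein named for its phosphorylation in sperm, had 105 to 176 against 170 to 307 normalized counts, or -0.74 (SE 0.16) on the log2 scale. Rnf144b, an E3 ubiquitin ligase (chromosome 13, 47122656 to 47247991), had 1013 to 1768 against 1373 to 2816, at -0.71 (SE 0.17). Ppp4r4, a regulatory subunit of protein phosphatase 4 (chromosome 12, 103532283 to 103613831), had 313 to 598 against 439 to 1240, at -0.85 (SE 0.23). Each of these 3 overlapped between groups, with 6, 4 and 3 RvE1 mice below the lowest vehicle mouse. Pde6c, the cone phosphodiesterase, had 7.72 to 33.7 against 5.30 to 15.7, with all RvE1 mice but 23-2L above every vehicle mouse, and its log2 fold change of 1.09 (SE 0.32) was not called (DESeq2 adjusted p = 0.107).

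Groups failed to overlap in only 3 of the 14207 genes tested (0.0211%), 2 higher (0.0141%) and 1 lower (0.00704%) in RvE1 mice, none called by any tool. Dennd3, which activates a Rab GTPase, had 113 to 187 normalized counts in RvE1 and 43.7 to 111 in vehicle mice. Zfp395 had 939 to 1526 against 662 to 919. The transcript 4930502E09Rik had 2.14 to 5.87 against 6.62 to 11.1. Their log2 fold changes were 0.73 (SE 0.19), 0.43 (SE 0.11) and -1.09 (SE 0.26).

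The DESeq2 calls of genes other than Zfp445 and Foxq1 were often lost when 1 mouse was left out. Of 14 such fits, Onecut1 and Ppp4r4 were each called in 6, Nptx1, Cyp21a1, Cish and Cyp4a14 each in 5, Ces2b, Cabyr, Hist1h1d and Bbc3 each in 4, and Rnf144b in 3. Without 23L, 12-2L or 15-2L, DESeq2 gave no adjusted p for Nptx1, Ces2b, Cyp21a1, Cabyr and Hist1h1d. It gave none for Bbc3 without 12-2L or 15-2L. These fits count as not called, although the gene was not judged in them. Within identifier number 23, with 1 vehicle and 2 RvE1 mice and no test, the 13 genes called by DESeq2 and described here had the sign they had over all mice. The calls were made on data that include these mice, so the shared sign is no separate support. The share of all genes that kept their sign is not given. The difference was 3.41 for Nptx1 and 2.62 for Hist1h1d on the log2 scale. It was -1.90 for Foxq1, -1.52 for Cish, -0.07 for Onecut1 and 0.91 for Cyp4a14, the last 3 smaller than over all mice.

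Chemokines for neutrophils and most neutrophil transcripts tested had lower means in RvE1 mice. The neutrophil transcripts named below were high in 4 vehicle mice and 1 RvE1 mouse. Cxcl1 (chromosome 5, 90891241 to 90893115) had 271 to 802 normalized counts (median 522) in RvE1 mice and 333 to 7257 (median 2282) in vehicle mice. The 3 vehicle mice numbered 10, at 333 to 577, lay within the RvE1 range, while 23L and the mice numbered 31 were at 2282 or above. RvE1 minus vehicle was -1.70 on the log2 scale (SE 0.65, adjusted p = 0.563 by limma and 0.107 by DESeq2), -3.14 without the mice numbered 10 and -0.78 without those numbered 31. Cxcl2 had 0 to 13.9 against 8.80 to 29.1, with 6 of 7 RvE1 mice below every vehicle mouse and -2.04 on the log2 scale (SE 0.52, limma adjusted p = 0.557). Those were the only 2 of 21 chemokines at an unadjusted p under 0.05, and the median over the list was 0.00.

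S100a8 and S100a9, which form the calprotectin of neutrophils, and Cxcr2, the receptor of those chemokines, were highest in the same 5 mice. S100a8 was at 70.6 to 324 in vehicle mice 23L, 31L, 31N and 31R, at 12.5 to 42.6 in the vehicle mice numbered 10, at 283 in RvE1 mouse 23-2L and at 5.41 to 29.3 in the other 6 RvE1 mice. Its log2 fold change was -1.80 (SE 0.83), that of S100a9 -1.66 (SE 0.74) and that of Cxcr2 -1.95 (SE 0.76). Of 9 neutrophil markers tested, 4 had a lower and 0 a higher mean at an unadjusted p under 0.05. The median was -1.62, or -2.52 without the mice numbered 10 and -1.14 without those numbered 31. Regardless of p, 8 had a negative fold change and 1 went the other way, more than 1.5-fold higher. Without the mice numbered 10, 1 marker was higher and 6 lower at an unadjusted p under 0.05, and without those numbered 23, 1 and 7. The median was -1.06 without the mice numbered 12. With either of numbers 12 and 31 left out, 0 markers were lower at an unadjusted p under 0.05. Of 16 neutrophil markers, 6, among them the defining Ly6g, Camp, Ltf and Mpo, were not listed in the table used. The summed normalized count of the 10 listed was 66.3 to 1064 (median 121) in RvE1 and 101 to 1318 (median 417) in vehicle mice. In bulk liver, fewer neutrophils and less RNA per neutrophil cannot be told apart.

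The acute phase genes, which hepatocytes express in response to interleukin 6 through STAT3, had 7 lower and 0 higher means at an unadjusted p under 0.05 among 34 tested, with a median log2 fold change of -0.19. Saa1, a serum amyloid A, had 1589 to 17973 normalized counts (median 6049) in RvE1 and 6605 to 33881 (median 21787) in vehicle mice, at -1.42 (SE 0.47). Saa4 was at -0.62 (SE 0.20), the metalloreductase Steap4 at -0.87 (SE 0.25) and the interleukin 6 receptor Il6ra at -0.74 (SE 0.27). For each of these 4 genes, 4 or 5 RvE1 mice lay below the lowest vehicle mouse. Without the mice numbered 10 the counts were 13 lower and 1 higher, and without those numbered 12 they were 1 and 0. Over all genes tested, 1219 were lower and 1147 higher in the first setting, and 327 and 169 in the second. The other lower members were Saa2, at -1.65 (SE 0.62), Orm1, at -0.34 (SE 0.13), and Orm3, at -0.87 (SE 0.40), and reads may be divided among the Saa and Orm copies. Among 25 NF-kB inhibitors and cytokines 2 were lower and 0 higher (median -0.20), Cd14 at -0.91 (SE 0.33) and Zc3h12a at -0.41 (SE 0.16). The 42 complement and coagulation genes had 0 members in either direction and a median of -0.07.

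**Figure D3:**
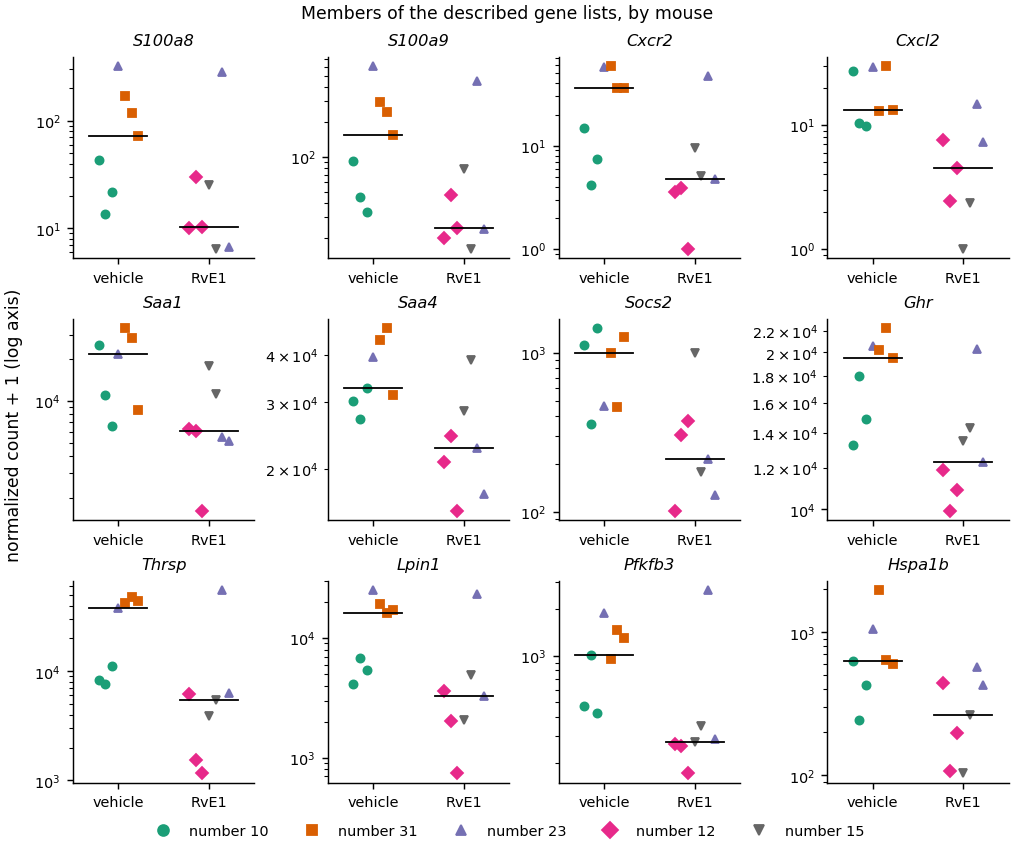
Normalized count + 1 (y axes, log scale) of 12 genes of the described lists, chosen after their values were seen, in 7 KO obese (vehicle) and 7 KO obese+RvE1 mice, with a bar at each group's median. RvE1 mouse 23-2L, the high triangle on the RvE1 side, lies with vehicle mice numbered 23 and 31 for S100a8, Cxcr2, Thrsp, Lpin1 and Pfkfb3.

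Among genes of lipid synthesis, Thrsp showed a similar arrangement of mice. Thrsp, the lipogenic regulator Spot 14, was at 1158 to 6322 normalized counts in 6 RvE1 mice and at 55708 in 23-2L. Vehicle mice numbered 10 had 7576 to 11155 and the other 4 vehicle mice 37751 to 48157. Its log2 fold change was -2.12 (SE 0.72), and without 23-2L it was -2.69 (adjusted p = 0.128 by limma). Lpin1, a phosphatidate phosphatase, was at -1.76 (SE 0.60), the elongase Elovl6 at -1.14 (SE 0.40) and the lipase Pnpla3 at -0.94 (SE 0.29). Of 24 genes of de novo lipogenesis, 5 had a lower and 0 a higher mean at an unadjusted p under 0.05, 21 had a negative fold change, and the median was -0.42. The fifth was Mlxipl, which encodes the carbohydrate-responsive factor ChREBP, at -0.43 (SE 0.17). The list had 13 lower members without the mice numbered 10, 14 without those numbered 23, 2 without those numbered 12 and 0 without those numbered 31. Its summed normalized count did not share the arrangement of Thrsp. Vehicle mice numbered 10 had 124660 to 194250, and 23L and those numbered 31 had 327820 to 540100. RvE1 mice 15R, 15-2L, 12-2L and 23RL had 221550 to 329070. Mouse 23-2L had 463190, and 12L and 12RL had 67682 and 119920. The 25 genes of cholesterol synthesis had 0 members in either direction (median -0.10).

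Of 30 genes of gluconeogenesis and glucose use, 7 had lower means, including Foxq1, and 1 a higher mean at an unadjusted p under 0.05 (median -0.13). Pfkfb3, which makes the activator of phosphofructokinase, had 169 to 2681 normalized counts (median 273) in RvE1 and 419 to 1899 (median 1007) in vehicle mice. Mouse 23-2L was the highest of all 14 and the other 6 RvE1 mice were below every vehicle mouse, so that the log2 fold change was -1.38 (SE 0.51) with it and -1.86 without it. The liver isoform Pfkfb1 was at -0.39 (SE 0.14) and the glycogen synthase Gys2 at -0.45 (SE 0.18), and the factor Foxo1 at -0.53 (SE 0.25). The list had 11 lower members without the mice numbered 10, 2 without those numbered 12 and 0 without those numbered 31. Among 24 genes of insulin signalling, 1 was higher and 2 were lower, with a median of -0.07. The higher one, Trib3, a pseudokinase that inhibits AKT and is induced by the integrated stress response, had 302 to 464 (median 446) against 56.9 to 484 (median 162), a log2 fold change of 1.32 (SE 0.34). Vehicle mouse 10RL, at 484, was the highest of all 14. The lower ones were the kinase subunits Pik3r1, at -0.60 (SE 0.21), and Pik3ca, at -0.25 (SE 0.11).

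The circadian clock list, 20 genes, had 1 higher and 5 lower members and a median of -0.18. The repressor Nr1d1 had 902 to 2120 normalized counts (median 1581) in RvE1 and 363 to 1733 (median 970) in vehicle mice, at 0.90 (SE 0.32). Cry1 was at -0.88 (SE 0.28), Per2 at -0.60 (SE 0.21) and Nampt, the enzyme of NAD salvage, at -0.66 (SE 0.19). Without the mice numbered 31 the list had 1 lower member and a median of -0.02, and without those numbered 12 it had 0 and -0.07.

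Heat shock proteins had a lower mean in 19 of 20 members, 7 of them at an unadjusted p under 0.05 and 0 higher (median -0.34). Hspa1b, an inducible HSP70, had 102 to 570 normalized counts (median 263) in RvE1 and 244 to 1978 (median 629) in vehicle mice, at -1.38 (SE 0.45). The cochaperone Chordc1 was at -0.49 (SE 0.14) and the mitochondrial chaperonin Hspd1 at -0.41 (SE 0.14). The unfolded protein and integrated stress response, 29 genes, had 5 higher and 1 lower members and a median of 0.13. Beside Trib3, the disulfide isomerase Pdia4 was at 0.35 (SE 0.11), with 6 of 7 RvE1 mice above every vehicle mouse, and the serine synthesis enzyme Phgdh at 1.09 (SE 0.39). The lower one was Chac1, a glutathione-degrading enzyme, at -0.77 (SE 0.35). The heat shock list had 1 lower member and the stress response list 2 higher members without the mice numbered 31.

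Of 30 interferon-stimulated genes, 6 had higher and 0 lower means at an unadjusted p under 0.05, with a median of 0.15. Oasl1, of the oligoadenylate synthetase family, had 236 to 592 normalized counts (median 474) in RvE1 and 113 to 400 (median 304) in vehicle mice, at 0.73 (SE 0.27). Isg15, a ubiquitin-like modifier, was at 0.53 (SE 0.22) and Dhx58 at 0.32 (SE 0.14). For Oasl1, 5 of 7 RvE1 mice lay above every vehicle mouse. The list had 9 higher members without the mice numbered 10, 10 without those numbered 23, and 1 without those numbered 12 or 31.

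**Figure D4:**
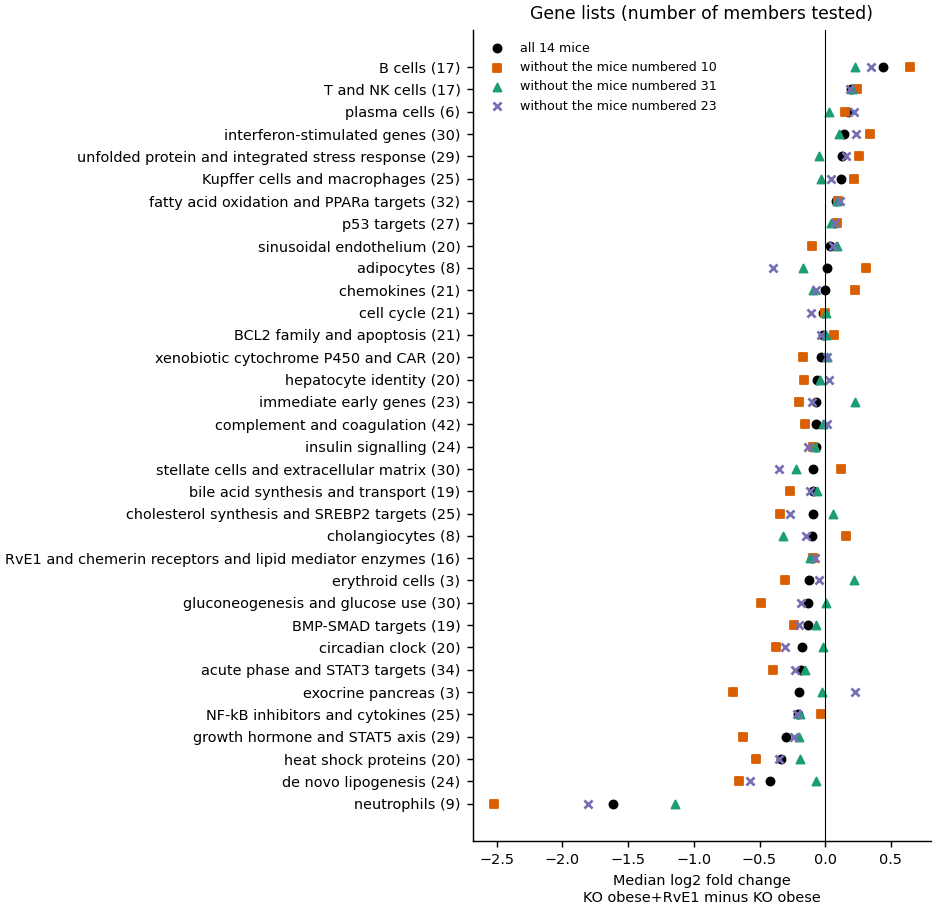
Median log2 fold change (x axis) of KO obese+RvE1 minus KO obese over the tested members of 34 gene lists (y axis, number tested in parentheses), with all 14 mice and without the mice of 1 identifier number. Neutrophils lie at -1.62 with all mice and at -2.52 without the mice numbered 10, and B cells at 0.44 and 0.64.

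Among cell type markers, B cells had higher means. Ms4a1, which encodes CD20, had 9.13 to 35.7 normalized counts (median 13.9) in RvE1 and 1.32 to 13.6 (median 10.1) in vehicle mice. The groups overlapped, with 4 of 7 RvE1 mice above every vehicle mouse, and the log2 fold change was 0.99 (SE 0.43). Cd79b, a chain of the B cell receptor complex, was at 0.77 (SE 0.36), Ltb at 0.73 (SE 0.34) and Bank1 at 0.57 (SE 0.27). Of 17 B cell markers tested, 5 had a higher and 0 a lower mean at an unadjusted p under 0.05, and the median was 0.44. Without the mice numbered 31 the list had 1 higher member and a median of 0.23, and without those numbered 12 it had 1 and 0.24. The summed normalized count of the list was 248 to 550 (median 412) in RvE1 and 228 to 435 (median 313) in vehicle mice, which overlapped. Pax5, Ebf1, Ighm and Ighd were among 6 markers not listed.

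Markers of plasma cells (6 tested), T and NK cells (17) and Kupffer cells and macrophages (25) had 0 members at an unadjusted p under 0.05 in either direction, with medians of 0.17, 0.19 and 0.12. The Kupffer cell protein Cd5l had 1395 to 4313 against 1583 to 2342 normalized counts. Hepatocyte identity genes, 20 in all, had 0 higher and 3 lower members (median -0.06), the factors Hnf4a at -0.38 (SE 0.17) and Foxa2 at -0.62 (SE 0.29) and the enzyme Tdo2 at -0.47 (SE 0.20). All 20 were listed, and their summed level was 1515300 to 1974800 in RvE1 and 1619200 to 2338800 normalized counts in vehicle mice. Sinusoidal endothelium (20 genes), cholangiocytes (8), adipocytes (8) and exocrine pancreas (3) had 0 members in either direction, with medians of 0.04, -0.10, 0.01 and -0.20. The pancreas and adipocyte lists lacked most or some defining markers, since 13 of 16 and 4 of 12, Adipoq and Plin1 included, were not listed. Stellate cells and extracellular matrix (30 genes) had 1 lower member, Tgfbr1, and a median of -0.09, and erythroid cells (3 genes) 1 higher member, Bpgm, and -0.12.

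The remaining lists had few such members. BMP-SMAD targets had 3 lower members of 19 and a median of -0.13, with Smad9 at -1.03 (SE 0.31), Smad1 at -0.36 (SE 0.16) and Id2 at -0.66 (SE 0.31). Immediate early genes had 1 lower member of 23, Myc, at -1.23 (SE 0.46), and a median of -0.07. Regardless of p, 6 of the 23 were more than 1.5-fold higher and 2 more than 1.5-fold lower, against 2.38% and 3.10% of all genes. Their summed normalized count was highest in RvE1 mouse 23-2L. Bile acid synthesis and transport had 1 higher member of 19, Nr0b2, the repressor SHP, at 0.83 (SE 0.33), and a median of -0.10. Cell cycle genes had 1 higher and 1 lower member of 21, Mcm2 and Rrm2, and a median of -0.02, and xenobiotic cytochromes P450 0 of 20 and -0.03.

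Receptors and enzymes of RvE1, chemerin and leukotrienes gave no member of 16 at an unadjusted p under 0.05 in either direction (median -0.10). Cmklr1 had 6.77 to 16.3 normalized counts in RvE1 and 5.33 to 24.3 in vehicle mice, at -0.19 (95% interval -0.82 to 0.44). Ltb4r1, the other RvE1 receptor, had 15.4 to 30.7 (median 25.4) against 10.6 to 33.8 (median 27.3), at -0.04 (95% interval -0.57 to 0.48). Alox5, the 5-lipoxygenase, had 1.54 to 8.11 against 2.40 to 12.4, at -0.53 (95% interval -1.33 to 0.26). The chemerin gene Rarres2 had 2855 to 4602 against 3068 to 4442, at -0.07 (95% interval -0.31 to 0.17). Ltb4r1 and Rarres2 were added after their values had been seen. The intervals of Cmklr1, Ltb4r1 and Alox5 extend to -0.57 or below, and differences inside them were not detectable here.

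In obese WT mice, which carry ChemR23, limma called 0 of 13085 genes for RvE1 against vehicle, with 795 (6.08%) at an unadjusted p under 0.05 and a smallest adjusted p of 0.150. List medians over the members tested in WT mice had the opposite sign for heat shock (0.19), acute phase (0.14), NF-kB (0.05) and T and NK cells (-0.21). The sign also differed for RvE1 and chemerin receptors and enzymes (0.10), plasma cells (-0.08), stellate cells (0.07) and the BCL2 family (0.06). It differed too for xenobiotic cytochromes P450 (0.12), bile acids (0.02) and hepatocyte identity (0.01). Among the lists that kept the sign they had in KO mice were growth hormone (-0.18), neutrophils (-0.19), lipogenesis (-0.06) and B cells (0.23). These medians were not tested between genotypes. Among single genes, several WT differences were in the same direction as in KO mice. Cyp4a14 was at 1.67 (SE 0.60) in WT and 1.69 (SE 0.53) in KO mice, Onecut1 at -1.41 (SE 0.49) and -1.87 (SE 0.59), Cish at -1.24 (SE 0.48) and -2.18 (SE 0.63), and Foxq1 at -0.88 (SE 0.32) and -1.41 (SE 0.43). Smad9 was at -1.08 (SE 0.26) in WT and -1.03 (SE 0.31) in KO mice. Other genes were nearer to 0 in WT mice. Nptx1 was at 0.26 (SE 0.53) in WT against 2.04 in KO mice, Bbc3 at 0.04 (SE 0.28) against 0.68 and Zfp445 at -0.36 (SE 0.19) against -0.88.

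None of these differences between genotypes held in a test of the difference itself. The interaction of RvE1 and genotype gave 0 of 13059 genes by limma at an adjusted p under 0.1 (smallest adjusted p 0.977), 311 (2.38%) at an unadjusted p under 0.05, and 0 by edgeR and by DESeq2, with 359 and 388 at an unadjusted p under 0.05. The KO minus WT difference was 1.77 (SE 0.80) for Nptx1, -0.51 (SE 0.25) for Zfp445 and 0.02 (SE 0.86) for Cyp4a14. No gene is therefore called particular to mice without ChemR23.

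**Figure D5:**
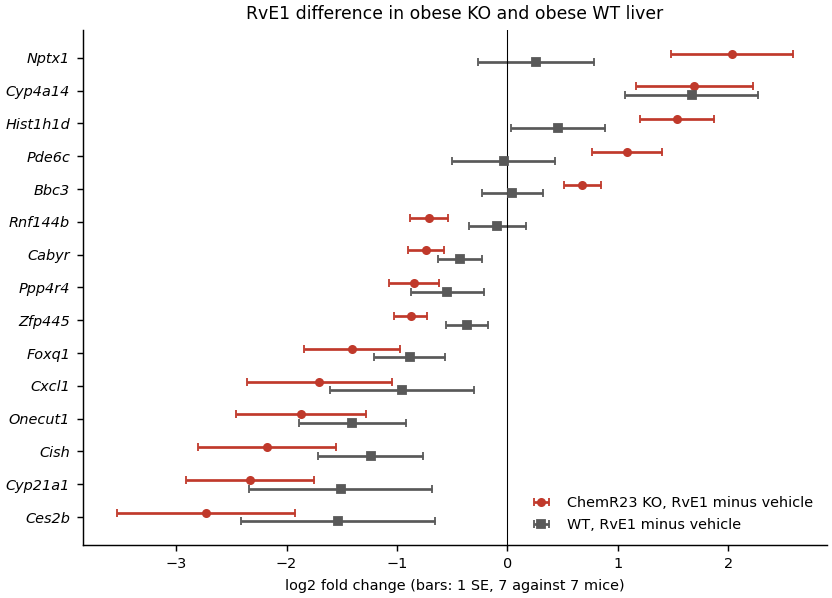
Log2 fold change of RvE1 minus vehicle (x axis, bars of 1 SE, 7 against 7 mice) for 13 genes called by DESeq2 and for Cxcl1 and Pde6c (y axis) in obese ChemR23 KO (red circles) and obese WT mice (grey squares). Cyp4a14 coincides at 1.69 and 1.67, while Nptx1 lies at 2.04 and 0.26, a difference that the interaction test did not call.

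Over all 6 groups of the study, on the CPM scale, the RvE1-treated KO mice were at one end of the order for several of these genes, and neighbours in the order overlapped. Median Cish was 35.4 in KO obese, 25.7 in WT obese, 25.3 in WT lean, 12.5 in KO lean, 8.14 in WT obese+RvE1 and 4.81 in KO obese+RvE1 mice. Median Zfp445 was 249 in KO obese, 212 in WT obese, 195 in WT lean, 162 in WT obese+RvE1, 142 in KO lean and 132 in KO obese+RvE1 mice. Cyp4a14, at a median of 1115 in KO obese+RvE1 mice, lay between the 465 of KO obese and the 1846 of KO lean mice. These levels were not tested.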

How the data were processed

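Whole liver RNA was sequenced from 42 mice with 1 library per mouse, and 14 libraries are reported. Per the labels and the methods, stranded total RNA libraries (the labels name polyA RNA) were aligned with Bowtie2 to mm10 and counted with featureCounts for pairs with both ends mapped. For the versions, the annotation and strandedness of the counting, the sources used here give nothing, so overlapping genes may share reads. The values the authors deposited are a signal per gene, read counts divided by DESeq2 size factors, in 1 table per comparison. All values were whole multiples of 1 read within 0.1 reads (100%), and whole reads were recovered from them. The tables also hold the authors' own fold changes and p-values, which were not used. All per-sample columns were mapped (0 left out), and no pair of libraries within either group matched within counting noise. The smallest chi-square, 21.9 per gene, was between RvE1 mice 12-2L and 23RL, and the next, 43.4, between 12L and 15-2L. Mice 12-2L and 23RL also lay close on the first (56.54 and 57.15) and second (-15.36 and -18.42) principal components. Why these libraries are so alike was not tested.

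Genes averaging at least 5 normalized counts (253 fell below) were log2 transformed after adding 1 to the normalized count and compared with limma 3.58.1 in R 4.3.3, with a trend, two-sided and with Benjamini-Hochberg adjustment. A fold change on this scale understates that of low genes. edgeR 4.0.16 (quasi-likelihood) and DESeq2 1.42.0 were run on the recovered reads, and the procedure was tested on simulated data. Library measures used scipy 1.17.1 in Python 3.11.15, where the smallest exact p is 0.000583. CPM used TMM factors over 42 libraries. Depth limits genes of few reads most, and intervals are 95%. Labels name no cage or litter. The p-values take the mice as independent, except where identifier number was a random block, and any shared cage or litter is left out of them.

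The members, lists and tests were chosen with earlier results of these data known. Named genes were 7 that the study names for this comparison, all genes called by any tool, the 10 higher and 10 lower with the smallest limma p (date-like names left out), up to 4 of smallest p in each of 34 lists, Cmklr1 and Wscd2. Of these, 1 gene called by DESeq2 and 2 list members are not reported here. Others named within lists were chosen after their values were seen. The summed markers were described without the permutation test first planned, the Rn45s share was added after seeing the data, and mitochondrial genes are not listed. Coordinates are from GENCODE M21 (GRCm38). Alternatives covered the pseudocount, filter, scaling, weights, threshold, tool, identifier number as a random block, and mice left out.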

Additional observations from a re-analysis of the deposited data

Results flagged for a closer look

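In 5 of 74 checks of single groups of 7 mice, the gap of 1 mouse to its nearest neighbour passed Dixon's 95% critical value for its share of the group's range. Chance gives about 1 in 20 such flags. Vehicle mouse 10RL had 221 normalized counts of Foxq1, and the next lowest vehicle mouse had 1374 (ratio 0.730). RvE1 mouse 12RL had 1526 of Zfp395, above the next at 1020 (0.829). Vehicle mouse 31L had 43.7 of Dennd3, below the next at 76.2 (0.593), and 3.97 of Wscd2, below the next at 15.4 (0.735). RvE1 mouse 15R had 5.41 of Wscd2, below the next at 17.0 (0.728).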

How the results depend on the processing

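The limma count of 0 genes was also 0 in 26 of 31 alternatives. It was 1 with library quality weights (2449 genes at an unadjusted p under 0.05), 14 with DESeq2, and 297 without the mice numbered 10, and it ran from 0 to 1 with 1 mouse left out. The DESeq2 count of 14 ran from 1 to 416 with 1 mouse left out, and was 775 without the mice numbered 10, 0 without 12, 347 without 23 and 1 without 31. Without replacement of outlying counts it was 14. These DESeq2 alternatives, and the lists without some mice, were added after seeing the data. The interaction count was 0 in 46 of 48 alternatives, 2 without the mice numbered 10 and 1 without those numbered 7, and 0 with any 1 mouse left out. The cause of these shifts was not tested.

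Of 961 fold changes of 31 genes, 5 reversed. Wscd2 was 0.21 with all mice and -0.15 with library quality weights, -0.033 without the mice numbered 12 and -0.20 without 31, and with 1 mouse left out it ran from -0.075 to 0.47. Cmklr1 was 0.11 without the mice numbered 10. The median of all genes was 0.07 with equal totals and 0.00 with TMM scaling.

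No paired analysis was run, since each mouse was given RvE1 or vehicle and the labels name no pairs. The labels give no replicate numbers, and those used here only name the mice. When mice of 1 identifier number formed a random block (correlation 0.0643), limma called 0 genes, its smallest adjusted p was 0.648, and 1039 genes passed 0.05 before adjustment. The interaction fit with this block (correlation 0.241) also gave 0.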
